A study of Mus musculus with 12 samples.

Results

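Cathepsins are a group of proteases named together for where they work, mostly in endosomes and lysosomes, and not for 1 common fold. The genes described here are 10 mouse cathepsin genes: Ctse, Ctsa, Ctsb, Ctsc, Ctsd, Ctsh, Ctsk, Ctsl, Ctss and Ctsz. They were taken by symbol from the platform annotation of a liver array experiment, and all 10 were found, each with 1 probe set, among 19938 genes. The set was chosen by a measured value, because Ctse had the largest difference between the genotypes on these same arrays, and its relatives were added by family. The differences between the genotypes given below for these 10 genes are therefore descriptions, and no test is attached to any of them.

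Livers came from male mice of the C57BL/6J background, fasted for 24 h and then refed for 6 h. One group carried the K289R knock-in of LRH-1 (6 mice), the other was wild type (WT, 6 mice), and each mouse had its own array. LRH-1 is a nuclear receptor, encoded by Nr5a2, that controls bile acid, cholesterol and glucose metabolism in hepatocytes, and K289R replaces a lysine to which the small protein SUMO can be attached. The labels used here give no age, and 1 WT label (replicate 4) has the strain name run into the genotype. The numbered mice of the groups are different animals.

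The cathepsins fall into 3 catalytic classes. Cathepsin E and cathepsin D are aspartic proteases, cathepsin A is a serine carboxypeptidase, and the others here are papain-like cysteine proteases. Most are made as inactive precursors, carried to lysosomes by mannose 6-phosphate receptors, switched on by the acid that the V-ATPase pumps in, and held in check outside the lysosome by cystatins and serpins. Cathepsin E is the exception in its location, since it is found in endosomes and the endoplasmic reticulum and is best known from gastric epithelium and antigen-presenting cells.

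Ctse was low in WT livers and bright in every K289R liver. In K289R livers its intensity was 352 at the lowest, 446 at the median and 557 at the highest, against 13.9, 19.4 and 23.4 in WT livers. The lowest K289R array was thus 15.1 times the highest WT array, and the groups did not overlap. The means were 447 ± 92.7 in K289R and 18.8 ± 3.99 in WT (SD, n = 6 each), a log2 difference of 4.57. The measured fold was 23.8. It may be a lower limit, since each WT value lay below the median intensity of its array (27.4 to 29.2 in WT). Without a detection call, signal there could not be told from background.

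The spread of Ctse between mice of the same genotype was small beside that gap. Its log2 values had an SD of 0.30 in K289R and 0.32 in WT. The K289R arrays fell into a higher trio (replicates 1, 4 and 5, at 557, 516 and 515) and a lower trio (replicates 2, 3 and 6, at 378, 360 and 352). The WT arrays, replicates 1 to 6, measured 17.8, 14.6, 21.0, 13.9, 22.1 and 23.4. The division into trios was not tested. Arrays K289R 1 and 3, which carried transcripts of pancreatic acinar cells, measured 557 and 360. Without those arrays the log2 difference was 4.56. Without WT 1 and 3 it was 4.61, and without all 4 it was 4.59.

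The genes with the profile nearest to that of Ctse are given as a description. Likeness was the root mean square difference of log2 values over the 12 arrays, after each gene was centred on its own mean, so that 0 is an identical profile. Asns, which makes asparagine, lay nearest at 0.53. After it came Cyp17a1, a steroidogenic cytochrome P450, at 1.36, Rgs16, a regulator of G protein signalling, at 1.36, Cyp2b9 at 1.37 and the ammonium transporter Rhbg at 1.52. A gene with no variation at all would lie at 2.30. Most of this distance comes from the genotype gap of Ctse, for which the set was chosen, so that only genes far higher in K289R could come near. The WT values of Ctse that enter the distance could not be told from background.

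**Figure D1:**
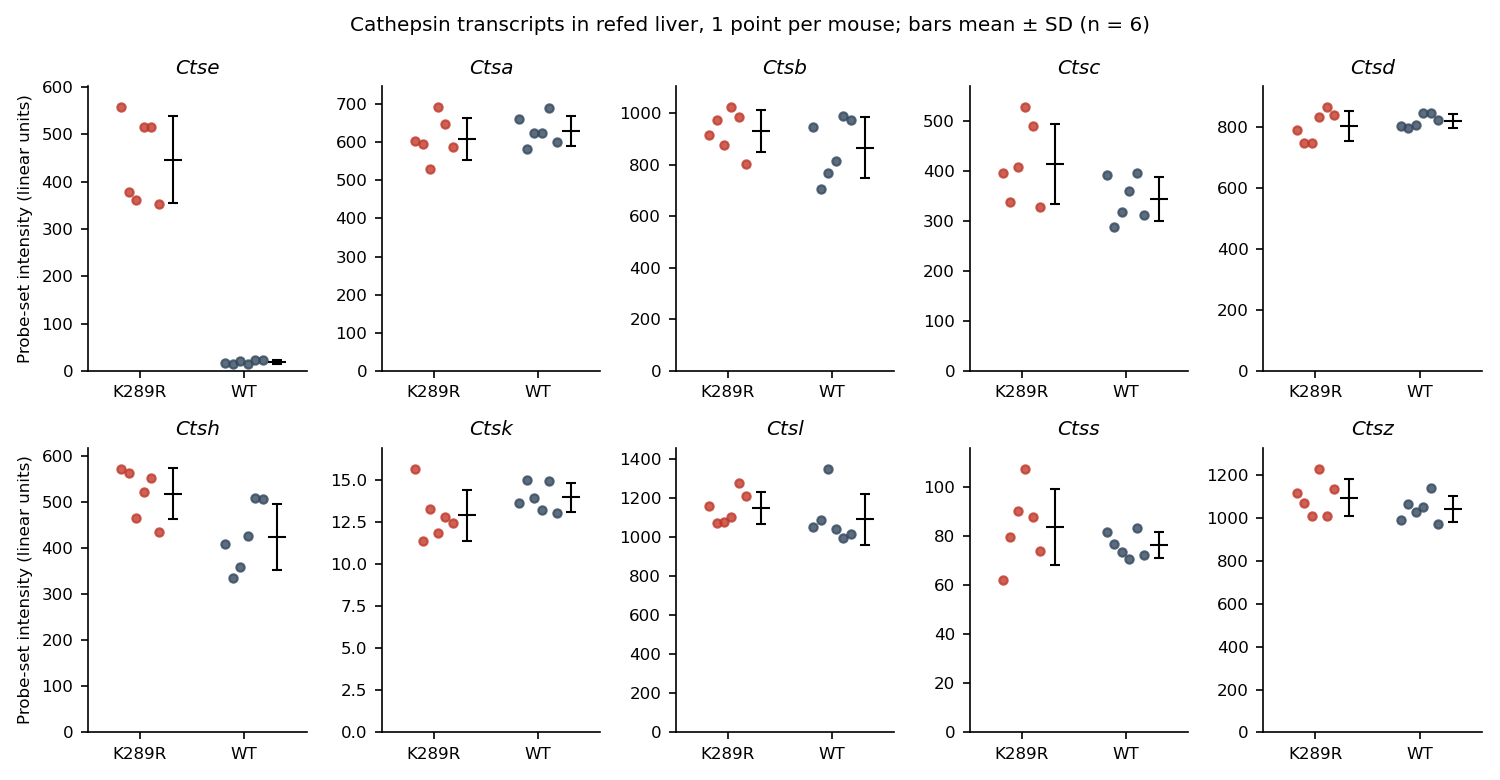
Probe-set intensity in linear units (y axis, from 0, with its own scale in each panel) of 10 cathepsin genes in livers of 6 K289R and 6 WT mice. Each point is a mouse, and the bars beside the points give the mean ± SD (n = 6). The 6 K289R points of Ctse lie between 352 and 557 and its WT points between 13.9 and 23.4, whereas the groups overlap in the other 9 panels.

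The other 9 cathepsins had far smaller differences. Of the 10 genes, 1 passed the threshold used across the array (limma, Benjamini-Hochberg adjusted p under 0.05 over 19938 genes), and that gene was Ctse. The same threshold called 0.572% of all genes, 0.481% as higher and 0.0903% as lower in K289R (96 and 18 genes, or 94 and 34 after quantile normalization). Because the contrast had served to choose the set, nothing is read from that count. Among the 9 the log2 differences ran from -0.12 (Ctsk) to 0.30 (Ctsh), with 6 above and 3 below 0 and a median of 0.08, beside a median of -0.01 over all genes. The arrays of the genotypes did not overlap for Ctse alone among the 10, and for 1.24% of all genes.

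Cathepsin D, the lysosomal aspartic protease and the closest functional relative of cathepsin E in the set, was nearly level between the genotypes. Ctsd ranged from 747 to 865 in K289R livers, with a median of 811, and from 797 to 847 in WT livers, with a median of 815. The means were 803 ± 50.3 and 820 ± 22.2 (SD, n = 6 each), a log2 difference of -0.03. Its SD between mice of 1 genotype, 0.07 on the log2 scale, was the smallest of the 10 genes. Cathepsin A, which protects lysosomal galactosidase and neuraminidase as well as cutting peptides, averaged 609 ± 55.6 in K289R and 630 ± 39.2 in WT. Its log2 difference of -0.05 was also smaller than its spread of 0.11, and 1 of the 6 K289R arrays lay above all WT arrays.

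Ctsh and Ctsc had the largest differences after Ctse. Cathepsin H, an aminopeptidase that also matures surfactant protein in lung, ranged from 436 to 573 in K289R livers, with a median of 537. In WT livers it ranged from 335 to 508, with a median of 418. Of the K289R arrays 4 exceeded every WT array, but K289R 3 and K289R 6 lay within the WT range. The measured ratio was 1.23, and the log2 difference of 0.30 fell to 0.24 without WT 1 and 3.

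Cathepsin C, or dipeptidyl peptidase I, activates the serine proteases of immune cell granules. It ranged from 328 to 529 in K289R livers, with a median of 402, and from 288.7 to 397 in WT livers, with a median of 339. The ratio was 1.19, on means of 415 ± 80.7 in K289R and 345 ± 44.8 in WT (SD, n = 6 each). The highest value, 529, was that of K289R 4, the array with the most macrophage transcripts.

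The endopeptidases cathepsin B and cathepsin L do much of the bulk degradation in liver lysosomes. Ctsb averaged 930 ± 81.1 in K289R and 866 ± 119 in WT (SD, n = 6 each, log2 difference 0.11). Ctsl averaged 1151 ± 83.1 in K289R and 1092 ± 131 in WT (log2 difference 0.08). The wide WT spread of Ctsl came from WT 3, which reached 1352 beside 997 to 1090 on the remaining WT arrays. Ctsz, a carboxypeptidase, averaged 1095 ± 84.6 in K289R and 1041 ± 60.6 in WT (log2 difference 0.07). All 3 differences were smaller than the spread between mice of 1 genotype. That spread is not the error of a difference of means, and the standard errors of the differences were 0.09 (Ctsb), 0.08 (Ctsl) and 0.07 (Ctsz).

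Cathepsin S, which trims the invariant chain in antigen-presenting cells, was more variable among K289R than among WT mice. Ctss ranged from 62.3 (K289R 1) to 108 (K289R 4) in K289R livers, with a median of 83.9, and from 70.9 to 83.5 in WT livers, with a median of 75.2. The K289R range enclosed the WT range, and the log2 SDs were 0.27 in K289R and 0.10 in WT. That difference in spread was not tested.

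Cathepsin K, the collagen-degrading protease of osteoclasts, was dim on all 12 arrays. Its intensity was 11.4 to 15.7 in K289R and 13.03 to 15.02 in WT, below the median of each array, so its log2 difference of -0.12 concerns values that could not be told from background.

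Most cathepsin genes outside the set were dim in these livers. Of 13 further cathepsin genes, 11 had a probe set of their own, and none was called higher or lower by limma, while 1 had an unadjusted p under 0.05, against 12.03% of all genes. The median log2 difference was 0.01. Most of these genes are expressed in placenta or immune cells, and 8 of the 11 lay below the median intensity on all arrays. Ctso and Ctsf, both cysteine cathepsins, were above it on every array. Ctso averaged 280 ± 21.0 in K289R and 254 ± 30.6 in WT (adjusted p = 0.509), and Ctsf 99.8 ± 10.3 in K289R and 93.0 ± 12.8 in WT (adjusted p = 0.677). Ctsll3 averaged 17.1 ± 1.18 in K289R and 20.05 ± 1.78 in WT (adjusted p = 0.214), and the placental Ctsq 4.25 ± 0.452 in K289R and 4.88 ± 0.651 in WT (adjusted p = 0.424). Among 5 other aspartic proteases, none was called and none had an unadjusted p under 0.05, with a median of -0.01. Of the gastric pepsinogen genes, Pgc averaged 17.98 ± 2.04 in K289R and 19.6 ± 2.08 in WT (adjusted p = 0.589). Pga5 averaged 19.9 ± 3.01 in K289R and 18.7 ± 2.63 in WT (adjusted p = 0.766).

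The genes that restrain, sort or assist cathepsins were also examined, in 8 further lists. Over these lists and the 2 of relatives, 87 of 100 genes were measured, 0 were called by limma, and 14 (16.1%) had an unadjusted p under 0.05, beside 12.03% of all genes. The smallest adjusted p was 0.0906. Of the 87 genes 66 had a positive difference, and their median was 0.07, whereas 46.0% of all genes had a positive one. These shares were not matched for brightness, and the differences depended on the scaling. With quantile normalization that of Hexa fell from 0.29 to 0.23, of Atp6v1e1 from 0.18 to 0.13 and of Cpq from 0.17 to 0.11. That of the dim Serpinb1a rose from 0.59 to 0.62. Nothing general about lysosomal genes is therefore read from the count of positive differences.

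Among 10 measured inhibitors of cathepsins and related proteases, the median difference was 0.10, and 1 gene had an unadjusted p under 0.05. Serpinb1a, a serpin that inhibits neutrophil serine proteases and cathepsin G, measured 19.1 to 42.1 in K289R and 14.9 to 20.9 in WT. The groups overlapped in K289R 6 alone, and the log2 difference was 0.59 (adjusted p = 0.0946). It passed with the replicate block (adjusted p = 0.0343) and without K289R 6 (adjusted p = 0.0380), with a range of 0.0343 to 0.555 over the 22 settings that kept it. Every WT array and 4 K289R arrays lay below the array median for Serpinb1a, where signal could not be told from background, and without dim genes it was not tested. Serpinb6a averaged 31.2 ± 6.18 in K289R and 26.9 ± 4.59 in WT (adjusted p = 0.517).

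Of 6 measured genes of lysosomal sorting, none was called and 2 had an unadjusted p under 0.05, in opposite directions. Igf2r, the large mannose 6-phosphate receptor that carries cathepsin precursors, averaged 161 ± 8.48 in K289R and 134 ± 9.84 in WT (SD, n = 6 each, adjusted p = 0.0906). Its groups did not overlap, at 153 to 176 in K289R and 121 to 147 in WT. It passed where dim genes were left out (adjusted p = 0.0435), with a range of 0.0435 to 0.534 over all settings. Sort1, the sorting receptor sortilin, had a log2 difference of -0.22 (adjusted p = 0.375).

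The lysosome itself was represented by its membrane, pump, hydrolases and peptidases. None of the 8 lysosomal membrane genes was called (1 at an unadjusted p under 0.05, median 0.10). The cholesterol exporters Npc1 and Npc2 had differences of 0.23 (adjusted p = 0.335) and 0.16 (adjusted p = 0.462). None of 14 V-ATPase genes was called (1 at an unadjusted p under 0.05), and 13 had a positive difference, with a median of 0.08. Its subunit Atp6v1e1 had 0.18 (adjusted p = 0.309), and the accessory protein Atp6ap2 also had 0.18 (adjusted p = 0.417).

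Of 14 lysosomal hydrolases none was called and 3 had an unadjusted p under 0.05, with a median of 0.12. Hexa, a hexosaminidase subunit, had a difference of 0.29 (adjusted p = 0.223) and the acid lipase Lipa one of 0.25 (adjusted p = 0.248). The 6 other lysosomal peptidases had a median of 0.05, with 0 called and 0 at an unadjusted p under 0.05. Cpq and Scpep1 were at 0.17 (adjusted p = 0.419) and 0.12 (adjusted p = 0.568). The TFEB family, transcription factors that activate lysosomal genes, had a median of 0.00 over 4 genes, with 0 called and 1 at an unadjusted p under 0.05. Tfe3 was at -0.17 (adjusted p = 0.408) and Tfeb at 0.06 (adjusted p = 0.786).

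MHC class II genes, whose products cathepsins S and E help to load with peptide, had the widest differences of these lists. None of 9 was called, and 4 had an unadjusted p under 0.05. H2-Aa measured 78.8 to 248 in K289R and 66.0 to 97.0 in WT (log2 difference 0.72, adjusted p = 0.214). H2-Ab1 had a difference of 0.69 (adjusted p = 0.268). The highest H2-Aa values were those of K289R 3, 4 and 5, at 175, 190 and 248. K289R 1, at 121, also lay above every WT array, whereas K289R 2 and 6 lay within the WT range. The mean log2 level of 12 macrophage and Kupffer cell markers was highest in K289R on arrays 3, 4 and 5, at 6.73, 7.19 and 6.67. It was 6.30 (K289R 1, the lowest of K289R) to 6.42 on the other K289R arrays and 6.21 to 6.80 in WT. Its part in the MHC class II values was not tested.

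**Figure D2:**
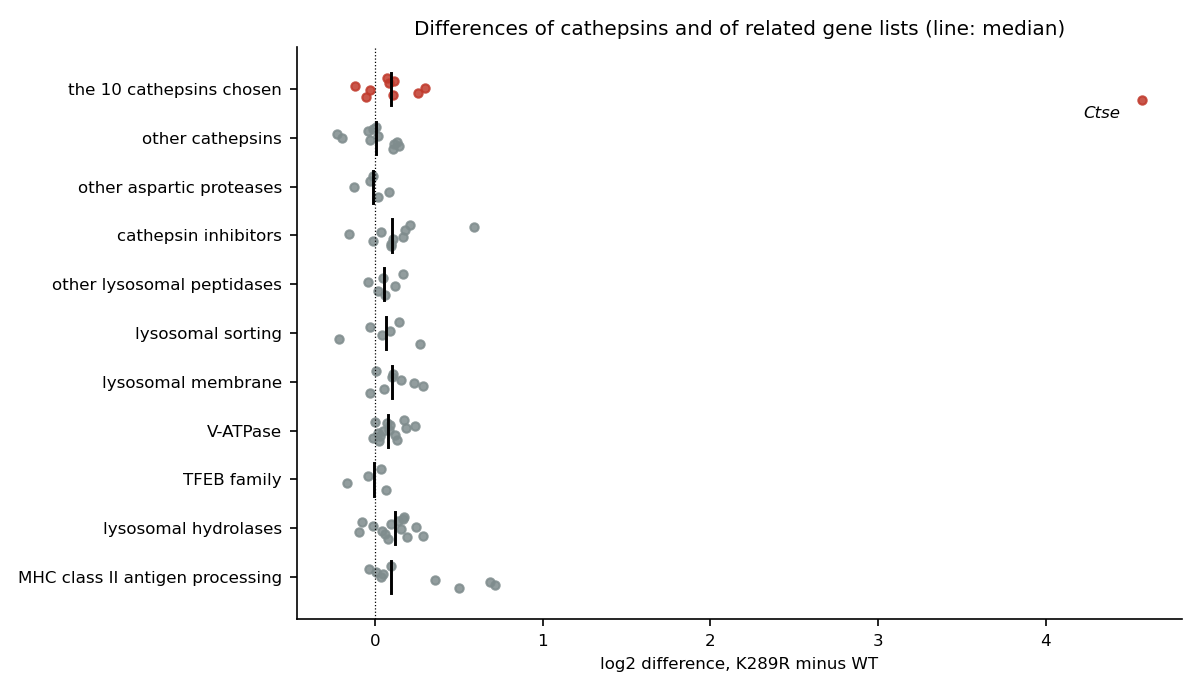
The log2 difference between K289R and WT livers (x axis) for the 10 cathepsins and for each measured gene of 10 related lists (rows), 1 point per gene, with the median of each row as a line. Ctse lies at 4.57 and all other points lie between -0.23 and 0.72.

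Markers of cells that could carry cathepsin transcripts were set beside these values. No marker gene of 13 cell type lists was called by limma. The measured hepatocyte markers, such as albumin and transthyretin, were bright on every array, and their mean log2 level was 12.2 to 12.3 in both genotypes. Gastric epithelial markers, the tissue best known for cathepsin E, had a mean log2 level of 4.54 to 4.92 in K289R and 4.53 to 4.88 in WT over 6 of 7 genes. B cell markers had 3.89 to 4.14 in K289R and 3.94 to 4.17 in WT over 5 of 6 genes, and dendritic cell markers 4.17 to 4.45 in K289R and 4.27 to 4.39 in WT over 6 genes. The ranges of these 3 lists overlapped between the genotypes. Below the median of every array lay 4 of the 6 dendritic, 3 of the 5 B cell and 2 of the 6 gastric markers, so that overlap says little about these cells. Of the 6 gastric markers 3 had a positive difference, the largest being Tff2 (0.39, limma adjusted p = 0.481) and Atp4a (0.26, limma adjusted p = 0.274). The part of these cells in the Ctse level was not tested. All 6 neutrophil markers lay below the median of every array. T and NK cell markers had 3.46 to 3.82 in K289R and 3.58 to 3.73 in WT, and osteoclast markers 4.99 to 5.34 in K289R and 5.11 to 5.32 in WT. Endothelial markers had 7.37 to 7.65 in K289R and 7.16 to 7.63 in WT, and stellate cell markers 6.94 to 7.30 in K289R and 7.02 to 7.15 in WT. Cholangiocyte markers had 4.47 to 4.78 in K289R and 4.42 to 4.70 in WT, and the 2 measured erythroid markers 6.59 to 6.83 in K289R and 6.27 to 6.88 in WT. Pancreatic acinar markers reached 9.02 on K289R 1 and 9.67 on K289R 3 and were at most 4.62 on the other K289R arrays, on which Ctse measured 352 to 516. The part of acinar cells in the Ctse level was not tested either. In whole liver, fewer cells of a type and less RNA per cell cannot be told apart.

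Variation between mice of the same genotype was independent of the contrast that chose the set, so it was tested. Each cathepsin was compared with the mean log2 level of 12 macrophage and Kupffer cell markers, with both taken as deviations from the genotype mean. That marker level was 6.30 to 7.19 in K289R, highest on K289R 4, and 6.21 to 6.80 in WT. Of 10 relations computed 1 passed (permutation test within genotype, two-sided, 100000 resamples, Benjamini-Hochberg over 10), and 2 had an unadjusted p under 0.05.

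Ctss varied with the macrophage markers. Its Pearson r was 0.85 over 12 arrays (permutation p = 0.00265, adjusted p = 0.0265). Spearman's rho was 0.78 (permutation p = 0.0102, adjusted p = 0.102), which did not pass the adjustment. Without K289R 4 and WT 3, the arrays farthest from the median marker level, r was 0.82. Within K289R mice r was 0.94 (exact permutation p = 0.00556, n = 6), and within WT mice it was 0.50 (exact permutation p = 0.344, n = 6). The adjusted p was over the threshold without K289R 4 (0.141), K289R 6 (0.111), WT 5 (0.0774), K289R 2 (0.0620), or K289R 1 and 3 together (0.117). Under these 19 settings r ran from 0.71 to 0.98.

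Ctsc had the next highest r, 0.69 (permutation p = 0.0286, adjusted p = 0.143; rho 0.59, permutation p = 0.0725, adjusted p = 0.363), and r was 0.51 without the same pair of arrays. For Ctse the 6 WT values could not be told from background, which limits any pooled relation. Within K289R mice r was 0.24 (exact permutation p = 0.704, n = 6). Over all arrays r was 0.11 (permutation p = 0.747, adjusted p = 0.747), with a rho of -0.03 (permutation p = 0.941, adjusted p = 0.991) and an r of 0.01 without those arrays. Over 19 settings it ran from -0.13 (without K289R 4) to 0.54 (without K289R 1 and 3 and WT 1 and 3), with adjusted p from 0.316 to 0.992. Ctsl had a negative r of -0.48 (permutation p = 0.0911, adjusted p = 0.304), a rho of -0.48 (permutation p = 0.133, adjusted p = 0.444), and an r of -0.11 without them. Within WT mice the r of Ctsl was -0.87 (exact permutation p = 0.0375, unadjusted, n = 6). Within K289R mice it was -0.25 (exact permutation p = 0.646, unadjusted, n = 6).

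**Figure D3:**
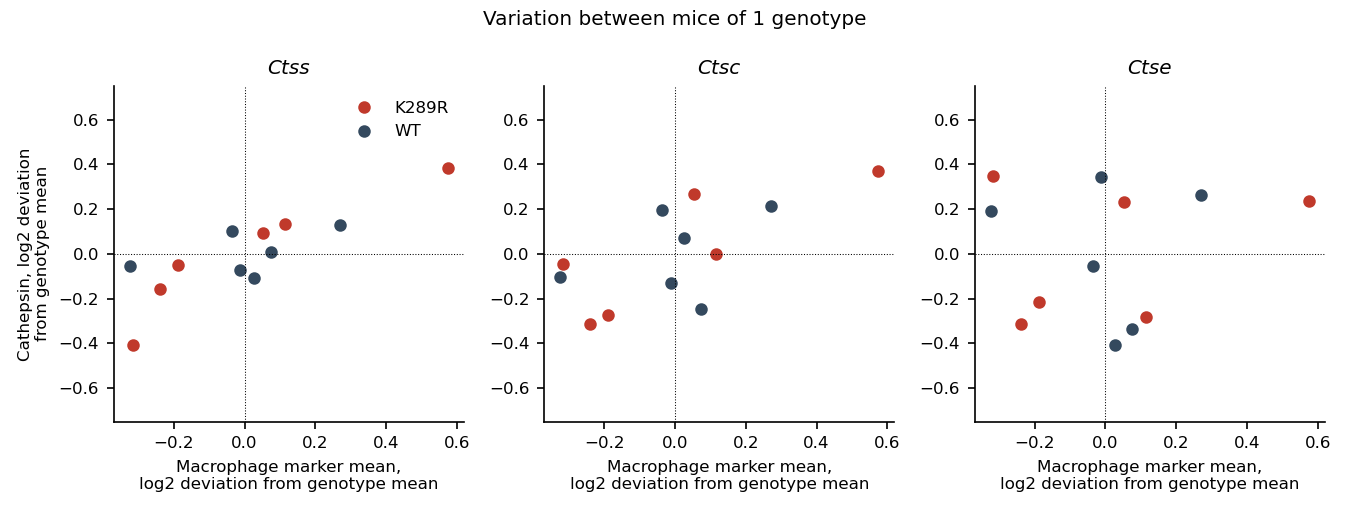
Deviation of Ctss, Ctsc and Ctse from the genotype mean (y axis, log2) against the deviation of the mean of 12 macrophage markers (x axis, log2), 1 point per mouse, K289R red and WT dark. The points of Ctss rise together with the markers (r = 0.85), those of Ctsc less closely (r = 0.69), and those of Ctse are scattered (r = 0.11). The WT values of Ctse could not be told from background.

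The cathepsins were also compared with each other in the same way, a test added after the values were seen. Of 45 pairs, 32 had a positive r and 0 passed the adjusted threshold, by r or by rho, while 5 had an unadjusted p under 0.05 for r and 6 for rho. The closest pair was Ctsb and Ctsh, with r = 0.86 (permutation p = 0.00173, adjusted p = 0.0779) and rho = 0.80 (permutation p = 0.00695, adjusted p = 0.272). Leaving out the 2 arrays farthest from the median of Ctsb gave r = 0.74. The closest pairs of Ctse were with Ctsb and Ctsh. With Ctsb, r was 0.62 (permutation p = 0.04999, adjusted p = 0.3755) and rho 0.69 (permutation p = 0.0262, adjusted p = 0.295). With Ctsh, r was 0.61 (permutation p = 0.0556, adjusted p = 0.3755) and rho 0.69 (permutation p = 0.0257, adjusted p = 0.295). Without the 2 arrays farthest for Ctse, r was 0.43 and 0.59.

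Promoter sequence was available for 7 of the 10 genes, with 8 start sites, as RefSeq windows of 250 bases before and 50 after the start (build GRCm38.p6). It was searched on both strands for 5 short motifs, chosen with the values known. GAGGAAGT, a core of the sites bound by the macrophage factor PU.1, occurred in 3.20% of 32851 promoters and, among the cathepsins, in those of Ctss and Ctsc. The longer form AGAGGAAGT, held by 330 of those promoters, was found in none of the 8 windows. The windows of Ctss (chr3:95526536-95526835, plus strand) and Ctsc (chr7:88277835-88278134, plus strand) are shown because these genes had the closest relations with the macrophage markers. Capitals mark the motif, which lies on the opposite strand and so reads ACTTCCTC.
Ctss: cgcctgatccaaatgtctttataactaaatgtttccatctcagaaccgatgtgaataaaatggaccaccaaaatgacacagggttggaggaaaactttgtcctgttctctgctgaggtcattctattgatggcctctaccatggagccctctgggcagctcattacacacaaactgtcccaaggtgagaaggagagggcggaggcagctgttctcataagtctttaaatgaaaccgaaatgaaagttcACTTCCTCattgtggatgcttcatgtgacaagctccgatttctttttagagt
Ctsc: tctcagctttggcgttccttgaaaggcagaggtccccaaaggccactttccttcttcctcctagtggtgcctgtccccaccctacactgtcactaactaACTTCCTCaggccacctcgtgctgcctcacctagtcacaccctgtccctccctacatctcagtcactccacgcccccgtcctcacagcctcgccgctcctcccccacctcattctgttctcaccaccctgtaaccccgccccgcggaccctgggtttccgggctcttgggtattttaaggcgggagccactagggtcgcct

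The match began at -2 in Ctss, where +1 is the first base after the start, and at -151 in Ctsc. TCACGTGA, the core of the element through which TFEB acts on lysosomal genes, was held by 0.974% of promoters. Of the 8 cathepsin windows 2 held it, that of Ctsd and 1 of Ctsa, whose other window did not. The shorter CACGTG within it was held by 7.15% of promoters and by 3 of the 8 windows, the same ones and that of Ctsl. The windows of Ctsa (chr2:164833523-164833822, plus strand) and Ctsd (chr7:142387778-142388077, minus strand) that hold TCACGTGA are shown. These genes also had the smallest differences between the genotypes, and nothing about the motif is read from that. Capitals mark TCACGTGA, at -13 and 5 in Ctsa and at -99 in Ctsd.
Ctsa: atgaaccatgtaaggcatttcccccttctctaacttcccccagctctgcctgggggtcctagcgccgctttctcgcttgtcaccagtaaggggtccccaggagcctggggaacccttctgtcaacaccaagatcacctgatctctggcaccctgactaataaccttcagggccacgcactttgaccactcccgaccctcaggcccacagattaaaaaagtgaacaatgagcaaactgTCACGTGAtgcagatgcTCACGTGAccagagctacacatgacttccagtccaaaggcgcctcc
Ctsd: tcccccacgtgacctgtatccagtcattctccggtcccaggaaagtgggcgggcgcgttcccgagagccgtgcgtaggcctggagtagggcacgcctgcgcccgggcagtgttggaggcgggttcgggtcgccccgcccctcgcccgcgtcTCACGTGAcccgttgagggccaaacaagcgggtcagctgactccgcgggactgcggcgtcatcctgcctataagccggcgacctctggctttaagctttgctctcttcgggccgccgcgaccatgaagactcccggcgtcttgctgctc

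CAAGGNCA, a form of the site that LRH-1 binds, was held by 6.71% of promoters and by none of the 8 cathepsin windows. These matches describe letters in a window, not binding. Windows of Ctse, Ctsb and Ctsh were not used here.

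Ctse lies on mouse chromosome 1, as does Nr5a2, the gene that carries the K289R change. The order of genes in RefSeq GRCm38.p6 was used without coordinates, since the array files name no build, and it places 84 protein-coding genes between them. The 10 measured genes on each side of Ctse were examined. Of these 20 genes 1 was called and 6 had an unadjusted p under 0.05, beside 0.572% and 12.03% of all genes. The called gene was Pm20d1, which encodes an enzyme that makes N-acyl amino acids and is the third measured gene from Ctse on the side of Nr5a2. It measured 746 to 847 in K289R and 361 to 545 in WT, without overlap (log2 difference 0.77, adjusted p = 0.0008). The others with an unadjusted p under 0.05 were Fam72a (0.39), Slc45a3 (0.34), Nucks1 (0.23), Srgap2 (0.21) and Slc41a1 (-0.32). Their limma adjusted p was 0.176 to 0.273. Srgap2 also did not overlap, at 75.2 to 93.7 in K289R and 67.1 to 73.9 in WT, as for 1.24% of all genes.

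The genes next to Ctse had differences near 0, but both measured near or below the array medians, at most 28.3 (Avpr1b) and 30.1 (Rab7b). Avpr1b, a vasopressin receptor gene on one side, had a log2 difference of 0.01 (adjusted p = 0.986), and Rab7b, a small GTPase gene of the endosomal pathway on the other, one of -0.05 (adjusted p = 0.827). Among the 81 measured genes between Ctse and Nr5a2, 2 were called higher (Pm20d1 and Snrpe) and 1 lower (Rnpep), with log2 differences of 0.77, 0.60 and -0.47, beside 0.481% called higher and 0.0903% called lower over all genes. The other 9 cathepsins lie on chromosomes 2, 3, 7, 9, 13 and 14. Whether the position of Ctse bears on its level was not tested.

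**Figure D4:**
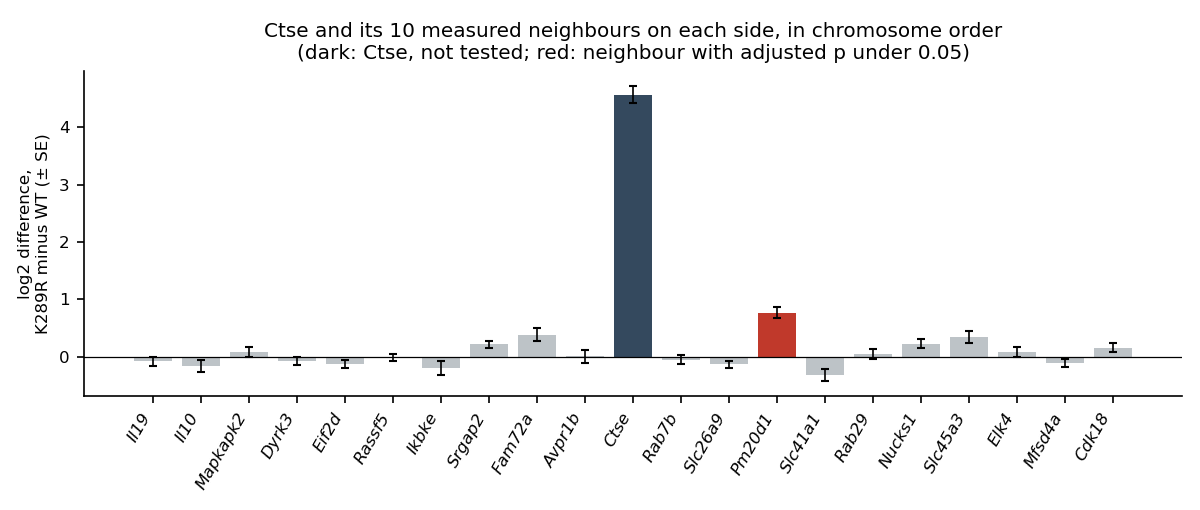
The log2 difference between K289R and WT livers (y axis, bars ± SE, n = 6 each) of Ctse and the 10 measured genes on each side of it, in the order of the chromosome (x axis). Ctse (4.57, dark) is shown as the gene the set was chosen for, with no test. Pm20d1 (0.77, red) is the neighbour that passed the threshold. Avpr1b and Rab7b next to Ctse, with intensities near or below the array medians, have differences near 0.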

How the data were processed

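Liver RNA of 12 mice (6 K289R, 6 WT) was measured on Affymetrix gene arrays, 1 per mouse. The deposited values are linear probe-set intensities made by the authors with Affymetrix Expression Console, per the submitters' processing notes; how they were summarized, background-corrected and scaled is not given in the sources used here. Array medians of 26.8 to 29.2 show a common scale. No detection call was available, and the number of arrays limits the precision.

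Of 35556 rows, 21789 carried a single symbol in the platform annotation, 1621 carried more than 1, and 12146 had no entry there. The 19938 genes were each read from their brightest probe set by mean log2 value. Symbols were updated by gene ID to RefSeq for 21698 rows. For log2 values, taken here from the deposited intensities without a pseudocount, limma 3.58.1 (R 4.3.3; lmFit and eBayes, no covariates) gave every adjusted p of the genotype contrast. Means ± SD are of linear intensities.

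Members, lists and tests were chosen with earlier results of these data known. Genes of lists were named if they passed the threshold, otherwise as the 2 with the smallest p. Neighbours were named if they passed. Neighbours with only an unadjusted p under 0.05, Avpr1b, Rab7b, Ctso and Ctsf were picked after their values were seen. So were Ctsl as a relation, the Ctsb and Ctsh pair, and the pairs of Ctse with Ctsb and with Ctsh. Cell type markers covered hepatocytes, macrophages, dendritic cells, neutrophils, T, NK and B cells, endothelium, stellate cells, cholangiocytes, erythroid cells, gastric epithelium, acinar cells and osteoclasts. Co-variation used Python 3.11.15 with numpy 2.4.6. On data simulated from the 19938 genes, limma called 90 of 100 genes changed 1.5-fold and 99 of 100 changed 2-fold, with 6 false calls among 195. The simulated noise was independent for each gene and array, without variation shared between genes. These rates therefore need not hold for the real arrays.

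Replicate numbers name different mice. Deviations of same-numbered arrays had correlations of -0.23 to 0.23, so they were not taken as pairs. No batch was named in the labels. Alternatives were 2 other scalings, a filter on dim genes, other variance models, probe-set means, all rows, and arrays left out, among them K289R 1 and 3 and WT 1 and 3, which earlier work on these data had set apart.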

Additional observations from a re-analysis of the deposited data

Results flagged for a closer look

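Of 42 sets of 6 arrays examined (each cathepsin, the macrophage marker level and each related list, in each genotype), 1 held an array far from the others. Ctsl on array WT 3 measured 1352, and the remaining WT arrays 997 to 1090. The gap to the nearest of them was 0.738 of the whole range, above Dixon's critical value for 6 arrays. Chance alone marks about 1 in 20 such sets. Without WT 1 and 3 the log2 difference of Ctsl was 0.15, against 0.08 with all arrays. WT 3 also had the lowest macrophage marker level of its group, 6.21. Within WT mice, WT 3 among them, the r of Ctsl with that level was -0.87 (exact permutation p = 0.0375, unadjusted, n = 6). Over both genotypes r was -0.11 without K289R 4 and WT 3. Whether the marker level bears on the Ctsl value of WT 3 was not tested.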

How the results depend on the processing

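The log2 difference of Ctse lay between 4.49 and 4.64 over 23 settings. The count of cathepsins past the threshold was 1 in each, from which nothing is read, since that contrast chose Ctse. All 229 differences of the 10 cathepsins under these settings moved by less than the spread between mice of 1 genotype. Stability is not read from that count, because much of it was fixed beforehand. Each cathepsin had 1 probe set, so probe-set means and all rows returned the same difference. So did the filter on dim genes where it kept the gene, the trended variance and the replicate block. Leaving out 1 array could move a group mean by only a part of that spread. The count of called genes over the whole array was 114, and it fell to 75 when arrays K289R 1 and 3 were left out and to 65 when WT 1 and 3 were dropped too; leaving out 1 array gave 81 to 159, and equal medians, quantile normalization, array weights and a trended variance gave 119, 128 (94 higher and 34 lower, against 96 and 18), 142 and 139. With the replicate block 111 genes were called, and the block changed no cathepsin call. Of the related lists, Serpinb1a and Igf2r were the genes that passed under any setting. The number of cathepsins that followed the macrophage markers was 1; it was 0 to 1 with 1 array left out, 0 without K289R 1 and 3, 3 without K289R 1 and 3 and WT 1 and 3, and 2 with the median of the markers. The number of called cathepsin pairs was 0; it was 0 to 1 with 1 array left out and 1 with equal array medians or without K289R 1 and 3, alternatives chosen after seeing the data. The cause of these changes was not tested. Values of WT Ctse, Ctsk and most of Serpinb1a lay below the array medians, where signal could not be told from background. Those of Avpr1b and Rab7b lay near or below the medians.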
